A study of Mus musculus with 33 samples.

Results

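The genes described here are 10 mouse genes that sit at the receiving end of growth factor signalling. They are the Egr transcription factors Egr1, Egr2 and Egr3, the immediate-early genes Ier2 and Ier3, the phosphatases Dusp1, Dusp4 and Dusp6, and the Sprouty inhibitors Spry2 and Spry4. They were taken by symbol from count tables of 37620 genes, and all 10 were found and passed the low-count filter of the fits reported here. The set was drawn up with these data already known, and Egr1 was selected on its count on day 12, far above the pluripotent lines, so its day 12 level is given as a description with no test. Reprogramming with Sox2, Klf4 and Myc (SKM) was followed by RNA-seq in 22 mouse libraries, with 15902838 to 20102260 counts each. Secondary MEFs (embryonic fibroblasts) and secondary NPCs (neural progenitor cells), in which doxycycline switches on the factors, were sampled on days 0, 2, 4, 8 and 12, with 2 libraries per origin and day. Of the NPC day 4 libraries, taken here as replicates, replicate 1 is headed as grown with feeder cells and replicate 2 without them. MEF days 4, 8 and 12 and NPC days 8 and 12 carry a GFP label. The labels do not name the gene that this green reporter marks, and their extraction notes speak of sorted cells without saying which libraries these were. The lines R1 ESC (embryonic stem cells) and SKM iPSC (induced pluripotent cells) had 1 library each.

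Several features go together with the day. MEFs were grown in serum medium, and reprogramming cells in mouse ES medium with doxycycline, while the medium of the NPCs is not stated. RNA of cultured cells was taken with a column kit, whereas sorted cells were lysed in TRIzol. Day, medium, factor induction, sorting and RNA handling therefore cannot be told apart for any fold change against day 0. The stage label of NPC days 2 and 4 names an earlier day than the titles, and the titles were followed. The labels do not say that libraries of a group came from separate cultures, so p-values measure only the spread between these libraries, which may be technical. In bulk RNA, fewer cells of a type and less RNA per cell cannot be told apart.

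Fibroblast growth factors and other ligands act through receptor tyrosine kinases and the Ras, Raf, MEK and ERK cascade. Active ERK switches on immediate-early genes within minutes through serum response factor and its ETS-family partners, and Egr1 is among the best known of them. The same signal induces its own brakes: Dusp phosphatases remove phosphate from ERK and related kinases, and Sprouty proteins act upstream of ERK to dampen the relay from the receptor. In mouse embryonic stem cells ERK signalling favours exit from the naive pluripotent state. No protein phosphorylation was measured, so these values are transcript levels and not ERK activity.

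Promoter windows, running from 250 bases before to 50 bases after the annotated start in RefSeq on build GRCm38.p6, were at hand for 5 of the 10 genes (Egr2, Ier3, Dusp1, Dusp6 and Spry2) in 9 windows. They are not in the build of the counts and were looked up by symbol. Windows of a single chromosome were left out before this look-up, so a gene without a window here may have one there. Shown first are Egr2 and Dusp6, which fell in both origins, and Dusp1. In the fits reported Dusp1 passed the test against day 0 in MEFs on day 2 only, among the 8 comparisons. Capitals mark a serum response element (CArG box) in Egr2 (chr10:67537620-67537919, plus strand) and the cAMP response element TGACGTCA in Dusp1 (chr17:26508423-26508722, minus strand). The Dusp6 window (chr10:99262981-99263280, plus strand) held no match.
Egr2: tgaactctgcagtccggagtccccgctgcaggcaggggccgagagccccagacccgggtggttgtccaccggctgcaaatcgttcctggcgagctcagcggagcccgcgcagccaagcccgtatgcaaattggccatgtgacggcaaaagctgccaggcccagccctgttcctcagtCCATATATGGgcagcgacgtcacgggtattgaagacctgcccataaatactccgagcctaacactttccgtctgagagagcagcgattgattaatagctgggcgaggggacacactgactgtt
Dusp1: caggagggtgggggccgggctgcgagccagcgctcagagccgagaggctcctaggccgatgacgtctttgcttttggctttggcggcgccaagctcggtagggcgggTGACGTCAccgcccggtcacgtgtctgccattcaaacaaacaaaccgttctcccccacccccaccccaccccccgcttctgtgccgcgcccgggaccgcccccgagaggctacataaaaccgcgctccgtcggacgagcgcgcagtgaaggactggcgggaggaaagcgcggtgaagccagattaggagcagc
Dusp6: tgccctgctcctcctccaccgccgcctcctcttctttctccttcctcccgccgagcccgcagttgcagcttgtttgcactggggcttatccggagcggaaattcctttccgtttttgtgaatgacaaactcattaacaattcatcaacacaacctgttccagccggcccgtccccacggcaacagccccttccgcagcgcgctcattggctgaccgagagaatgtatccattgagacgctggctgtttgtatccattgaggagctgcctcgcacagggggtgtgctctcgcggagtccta
The search on both strands covered the serum response element by name, TGACGTCA, the Egr site GCGNGGGCG and the AP-1 site TGANTCA. Among the 32851 windows of 300 bases on the other chromosomes, 1.63% held the first, 1.79% the second, 5.55% the third and 7.81% the last. The Egr2 match began at position -73 from the start and the Dusp1 match at position -143. A window of Egr2 around an upstream start held a separate serum response element, at position -72, and overlapping windows held the one shown, whereas the windows of Ier3 and Spry2 held no match to any of these motifs. A match of letters is a description and says nothing of binding in these cells.

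Egr1, a zinc finger factor that serum and growth factors induce, was high in both starting cell types, low on days 2 and 4 and high again later. Levels are given as CPM, the read count relative to the total of its library after TMM scaling. MEF libraries held 697 and 219 CPM on day 0, 67.0 and 41.6 at day 2, 12.9 and 15.7 at day 4, 244 and 126 at day 8, and 172.5 and 469 at day 12. Every MEF library of days 2 and 4 lay below both day 0 libraries, while those of day 8 and day 12 overlapped the range of day 0. NPC libraries held 435 and 849 CPM on day 0, 48.0 and 45.3 at day 2, 33.3 and 76.9 at day 4, 65.2 and 236 at day 8, and 149 and 428 at day 12. All NPC libraries after day 0 lay below both of day 0.

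The fall of Egr1 passed the test in both origins. In MEFs the log2 fold change against day 0 was -3.22 ± 0.62 (SE) on day 2 (edgeR adjusted p = 0.00201) and -5.11 ± 0.69 on day 4 (edgeR adjusted p = 0.000144). On day 8 it was -1.43 ± 0.58 in MEFs (edgeR adjusted p = 0.0547), which missed the threshold of 0.05 but was called with RLE scaling, without a low-count filter and by DESeq2. In NPCs Egr1 changed by -3.79 ± 0.69 on day 2 (edgeR adjusted p = 0.00193), -3.53 ± 0.68 on day 4 (edgeR adjusted p = 0.00203) and -2.10 ± 0.64 on day 8 (edgeR adjusted p = 0.0146). The NPC day 8 call was lost without day 0 replicate 2 (edgeR adjusted p = 0.0993) and without day 8 replicate 1 (edgeR adjusted p = 0.0918). Between days 4 and 8 Egr1 rose in MEFs by 3.68 ± 0.64 (edgeR adjusted p = 0.00416), a call lost without day 4 replicate 1 (edgeR adjusted p = 0.0579). In NPCs the same step was 1.43 ± 0.63 (edgeR adjusted p = 0.0995) and did not pass.

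On day 12 Egr1 remained far above both pluripotent lines, the property for which it was chosen. R1 ESC held 10 counts of Egr1, or 0.508 CPM with an exact Poisson 95% interval of 0.244 to 0.935, and SKM iPSC held 4 counts, or 0.215 CPM with an interval of 0.0586 to 0.551. The intervals cover counting error only. The day 12 means were 321 CPM for MEF and 288.5 CPM for NPC origin, 887-fold and 798-fold above the mean of the lines. Counting error in the lines alone spans 529-fold to 1620-fold for the first ratio and 476-fold to 1460-fold for the second. The lowest day 12 library of each origin was still 339-fold (MEF) and 293-fold (NPC) above the higher line. By the ratio of mean CPM with 0.5 added to both, Egr1 had rank 5 from the top among 16188 genes in MEF-derived and rank 4 in NPC-derived cells. The day 12 means amounted to 70.1% of the MEF and 44.9% of the NPC day 0 mean.

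Arranged by mean level, Egr1 ran from NPC day 0 and MEF day 0 through MEF and NPC day 12, MEF and NPC day 8, NPC day 4, MEF day 2 and NPC day 2 to MEF day 4, R1 ESC and SKM iPSC. The libraries of neighbouring groups overlapped at 8 of the 11 steps of this order. MEF day 4 stood apart from its neighbours on both sides, and the lines lay below every reprogramming group.

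**Figure D1:**
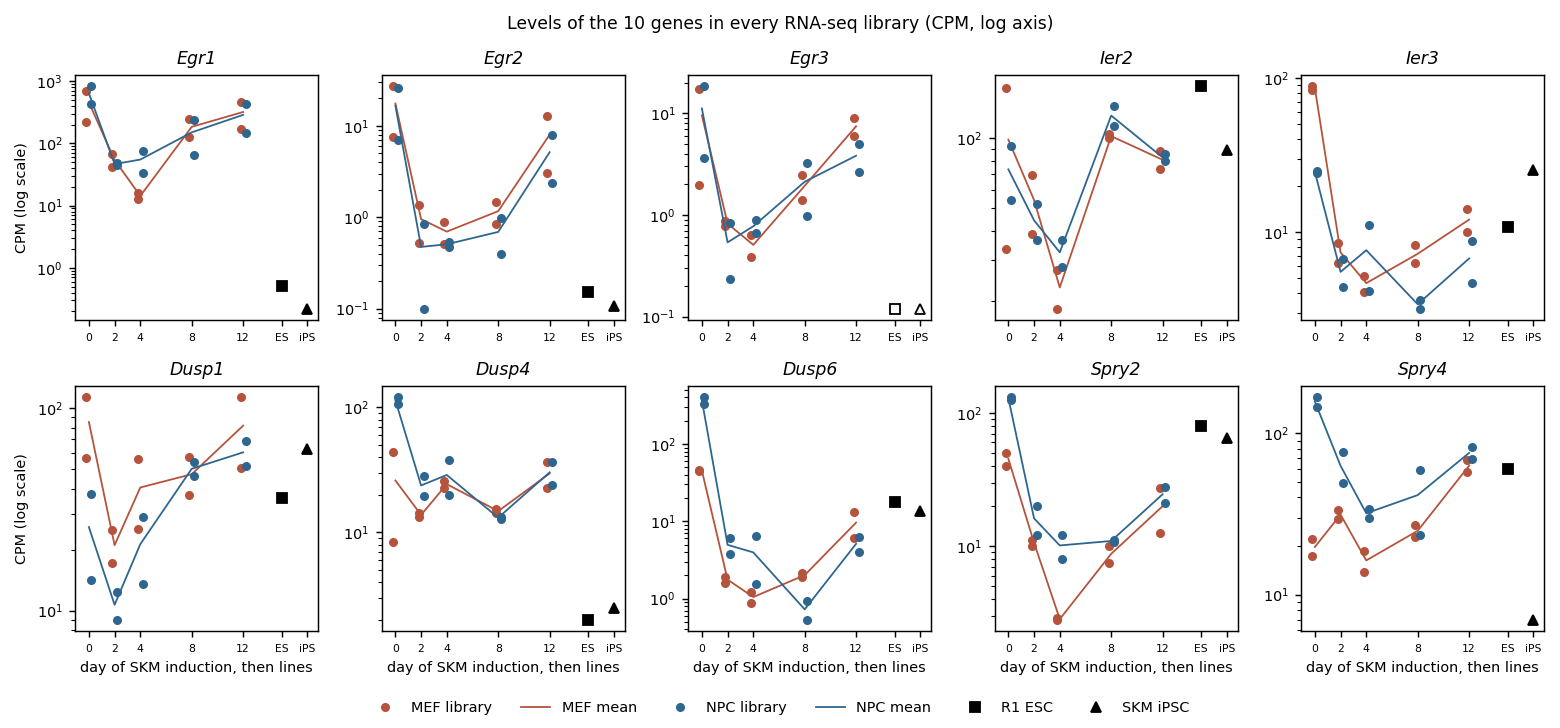
Level of each of the 10 genes in every library (CPM, log axis) by day of SKM induction, with lines through the means of MEF (red) and NPC (blue) libraries and the R1 ESC (square) and SKM iPSC (triangle) libraries at the right; open symbols mark a count of 0. Egr1, Egr2, Egr3 and Dusp4 on day 12 lie above both lines, while Spry2 and Dusp6 lie below them.

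Egr2 and Egr3, which bind the same DNA motif as Egr1, fell with it. Egr2 held 27.5 and 7.61 CPM in MEFs on day 0, 0.512 to 1.48 CPM in the 6 MEF libraries of days 2 to 8, and 3.06 and 12.97 CPM on day 12. In NPCs it held 7.04 and 26.3 CPM on day 0, 0.0985 to 0.985 CPM on days 2 to 8, and 2.37 and 7.92 CPM on day 12. All 12 libraries of days 2 to 8 thus lay below the lower day 0 library of their origin. The log2 fold change of Egr2 was -4.35 ± 0.88 in MEFs (edgeR adjusted p = 0.00254) and -5.11 ± 1.03 in NPCs on day 2 (edgeR adjusted p = 0.00326), and -4.04 ± 0.87 and -4.55 ± 1.00 on day 8 (edgeR adjusted p = 0.00237 and 0.00238). These calls, and those of day 4, were kept with each single library left out.

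The later rise of Egr2 was less firm. From day 8 to day 12 it rose by 2.85 ± 0.84 in MEFs (edgeR adjusted p = 0.0463) and 2.90 ± 0.96 in NPCs (edgeR adjusted p = 0.041). Leaving out day 12 replicate 2 gave 1.51 in MEFs (edgeR adjusted p = 0.373) and 1.76 in NPCs (edgeR adjusted p = 0.304), and either day 8 library also ended the call in both origins. In the lines Egr2 had 3 counts in R1 ESC and 2 in SKM iPSC, and the day 12 means were 61.6-fold (counting interval 26.4 to 190) above them for MEF and 39.6-fold (17.0 to 122) for NPC origin.

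Egr3 held 17.1 and 1.945 CPM in MEFs and 3.66 and 18.6 CPM in NPCs on day 0, so the day 0 libraries of each origin differed more than for any other member. It changed by -3.67 ± 0.91 in MEFs (edgeR adjusted p = 0.00882) and by -4.38 ± 0.98 in NPCs on day 2 (edgeR adjusted p = 0.00665). Without the higher day 0 library these became -1.41 and -2.79 and were no longer called. The MEF call was also lost without either day 2 library, and the NPC call without day 2 replicate 1. The MEF day 4 value of -4.33 ± 0.97 (edgeR adjusted p = 0.00354) was kept with every library left out, whereas the calls on day 8 in both origins and NPC day 4 were not. On day 12 Egr3 held 5.91 and 8.95 CPM in MEF-derived and 2.65 and 4.98 CPM in NPC-derived cells. Neither line had a count of Egr3, so with a floor of 3 counts over both lines its day 12 mean was at least 94.7-fold higher in MEF-derived and at least 48.6-fold higher in NPC-derived cells.

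Ier2, an immediate-early gene coding for a nuclear protein, behaved unlike the Egr genes. MEF libraries held 163 and 33.4 CPM on day 0, 18.5 and 27.4 at day 4 and 104 and 99.8 at day 8, and NPC libraries held 54.3 and 92.5 at day 0, 28.1 and 36.7 at day 4 and 137 and 112 at day 8. Day 4 was thus the lowest and, in NPCs, day 8 the highest day. Ier2 changed on day 4 by -2.21 ± 0.61 in MEFs (edgeR adjusted p = 0.00912) and -1.16 ± 0.35 in NPCs (edgeR adjusted p = 0.0216), but leaving out the higher day 0 library gave -0.68 (edgeR adjusted p = 0.186) and -0.75 (edgeR adjusted p = 0.198). It then rose from day 4 to day 8 by 1.95 ± 0.36 in NPCs (edgeR adjusted p = 0.00323), kept with every library left out, and by 2.14 ± 0.61 in MEFs (edgeR adjusted p = 0.0302), lost with any of the 4 libraries left out. R1 ESC held 167 CPM and SKM iPSC 89.1 CPM, and all 4 day 12 libraries, at 73.3 to 88.0 CPM, were below both.

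Ier3, a target of ERK and NF-kappaB that also modulates ERK dephosphorylation, fell in all 8 comparisons with day 0. MEF libraries held 83.2 and 89.2 CPM on day 0 and 4.10 to 8.49 CPM on days 2 to 8, and NPC libraries held 24.9 and 24.3 CPM on day 0 and 3.15 to 11.1 CPM on days 2 to 8. Neither origin overlapped its starting level on any later day. In MEFs the change was -3.69 ± 0.43 on day 2 (edgeR adjusted p = 0.000122) and -2.90 ± 0.41 on day 12 (edgeR adjusted p = 0.00023), and all 4 MEF calls were kept with each library left out. In NPCs only the day 8 change of -2.84 ± 0.59 (edgeR adjusted p = 0.0016) was kept in this way, against -2.16 ± 0.56 on day 2 (edgeR adjusted p = 0.0123) and -1.83 ± 0.56 on day 12 (edgeR adjusted p = 0.0181). The lines held 10.7 and 25.45 CPM.

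Dusp6, a cytoplasmic phosphatase selective for ERK and a widely used readout of FGF signalling, showed the largest fall of the 10 genes. NPC libraries held 409.6 and 331 CPM on day 0, 3.82 and 6.10 at day 2, 6.37 and 1.56 at day 4, 0.525 and 0.927 at day 8, and 4.03 and 6.21 at day 12. MEF libraries held 46.1 and 44.5 CPM on day 0, 1.60 and 1.93 at day 2, 1.22 and 0.881 at day 4, 1.88 and 2.15 at day 8, and 6.12 and 13.2 at day 12. No later library of either origin reached the day 0 range, and the day 12 libraries lay below both lines, which held 17.9 and 13.8 CPM.

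Against day 0 Dusp6 changed by -6.22 ± 0.60 on day 2 (edgeR adjusted p = 4.6e-05) and -8.97 ± 0.71 on day 8 in NPCs (edgeR adjusted p = 3.37e-06). In MEFs it changed by -4.82 ± 0.45 on day 2 (edgeR adjusted p = 4.86e-05) and -2.29 ± 0.39 on day 12 (edgeR adjusted p = 0.000758). All 8 calls against day 0 were kept with each library left out. Its rise from day 8 to day 12 was 2.32 ± 0.41 in MEFs (edgeR adjusted p = 0.0134) and 2.83 ± 0.62 in NPCs (edgeR adjusted p = 0.00927). Without day 12 replicate 2 this call was lost in both, at 1.71 and 2.47. The call was also lost without either day 8 library in MEFs and without day 8 replicate 1 in NPCs. The NPC fall from day 4 to day 8 of -2.45 ± 0.63 (edgeR adjusted p = 0.0132) became -1.08 (edgeR adjusted p = 0.129) without day 4 replicate 1, the library with feeder cells in its heading.

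Dusp4, a nuclear phosphatase of ERK and related kinases, fell in NPCs. NPC libraries held 107 and 122 CPM on day 0, 19.4 and 28.1 at day 2, 37.7 and 19.98 at day 4, 13.3 and 12.9 at day 8, and 23.8 and 36.7 at day 12. The change was -2.27 ± 0.36 on day 2 (edgeR adjusted p = 0.000848) and -3.10 ± 0.37 on day 8 (edgeR adjusted p = 4.9e-05), and all 4 NPC calls were kept with each library left out. In MEFs Dusp4 held 8.45 and 43.7 CPM on day 0, a range that covered the 8 later libraries of 13.4 to 36.45 CPM, and no change against day 0 passed. Without MEF day 0 replicate 2 Dusp4 was called higher on day 4 (1.39, edgeR adjusted p = 0.012) and day 12 (1.72, edgeR adjusted p = 0.00541), and without replicate 1 it was called lower on days 2, 4 and 8. The lines held 1.98 and 2.48 CPM, and the day 12 means were 13.3-fold (MEF) and 13.6-fold (NPC) above them.

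Dusp1 is the immediate-early phosphatase that acts on p38 and JNK as well as ERK. In the fits reported it passed the test against day 0 in MEFs on day 2 only, among 8 comparisons. MEF libraries held 56.9 and 114 CPM on day 0, 24.9 and 17.2 at day 2, 50.4 and 113 at day 12, and the day 2 change was -2.17 ± 0.54 (edgeR adjusted p = 0.00741). It was lost without day 2 replicate 2 (-1.92, edgeR adjusted p = 0.0582). In NPCs Dusp1 held 14.1 and 37.6 CPM on day 0 and 52.0 and 68.9 at day 12, a change of 1.26 ± 0.49 (edgeR adjusted p = 0.0529) that did not pass although the libraries did not overlap. It was called higher by DESeq2 (adjusted p = 0.0455), without a low-count filter (edgeR adjusted p = 0.0351) and in a fit of only the groups compared (edgeR adjusted p = 0.0251). On NPC day 2 Dusp1 was called lower with RLE scaling (edgeR adjusted p = 0.0477), without a low-count filter (edgeR adjusted p = 0.0192) and by DESeq2 (adjusted p = 0.0211). On MEF day 4 it was called lower without a low-count filter (edgeR adjusted p = 0.00118) and by DESeq2 (adjusted p = 0.0384). The fit without that filter also called it lower on MEF day 8 (edgeR adjusted p = 0.0086). Of the lines, SKM iPSC at 62.8 CPM lay within the range of the day 12 libraries of both origins, and R1 ESC at 36.0 CPM lay below it.

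Spry2, an inhibitor of receptor tyrosine kinase signalling that is itself induced by FGF, fell in all 8 comparisons with day 0. MEF libraries held 50.2 and 40.2 CPM on day 0, 11.1 and 10.1 at day 2, 2.88 and 2.77 at day 4, 7.40 and 10.1 at day 8, and 12.5 and 27.4 at day 12. NPC libraries held 126 and 132.5 CPM on day 0, 12.2 and 20.1 at day 2, 12.2 and 8.05 at day 4, 11.2 and 10.7 at day 8, and 21.1 and 27.8 at day 12. No later library overlapped day 0 in either origin, and all day 12 libraries were below the lines at 79.95 and 64.7 CPM. The change was -4.11 ± 0.40 in MEFs (edgeR adjusted p = 2.92e-05) and -3.65 ± 0.33 in NPCs on day 4 (edgeR adjusted p = 2.03e-05), and -1.25 ± 0.35 (edgeR adjusted p = 0.0125) and -2.36 ± 0.31 (edgeR adjusted p = 0.000109) on day 12. Of these 8 calls only MEF day 12 was lost with a library left out, without day 12 replicate 1 (-0.75, edgeR adjusted p = 0.0824).

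Spry4, a further Sprouty inhibitor of Ras and ERK signalling, fell in NPCs on days 4 and 8 and passed no comparison with day 0 in MEFs. NPC libraries held 146 and 168 CPM on day 0, 49.3 and 76.2 at day 2, 29.9 and 34.0 at day 4, 59.2 and 23.45 at day 8, and 68.9 and 81.9 at day 12. MEF libraries held 17.4 and 22.1 CPM on day 0, 29.3 and 33.2 at day 2, 13.9 and 18.7 at day 4, 22.7 and 27.03 at day 8, and 57.1 and 68.6 at day 12. Every NPC library after day 0 was below, and every MEF library of days 2, 8 and 12 above, both starting libraries. In NPCs the fall passed on day 4 (-2.28 ± 0.74, edgeR adjusted p = 0.0288) and day 8 (-1.89 ± 0.73, edgeR adjusted p = 0.0413), but the first call was lost with any of the 4 libraries left out and the second with any of 3. In MEFs the day 12 change of 1.60 ± 0.68 (edgeR adjusted p = 0.0674) did not pass. It was called higher in 5 other settings, without a low-count filter (edgeR adjusted p = 4.02e-05), by DESeq2 (adjusted p = 0.0357), with only the groups compared (edgeR adjusted p = 0.0113), in the joint fit (edgeR adjusted p = 0.035) and with a replicate block and the lines left out (edgeR adjusted p = 0.000846). With only the lines left out, an alternative chosen after seeing the data, it was also called (edgeR adjusted p = 0.000838), and with single libraries left out it was not called (edgeR adjusted p = 0.107 to 0.208). The lines stood far apart, at 59.9 CPM in R1 ESC and 6.94 CPM in SKM iPSC. In the fits reported they were 1 group, so this distance is part of the spread behind the Spry4 p-values.

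**Figure D2:**
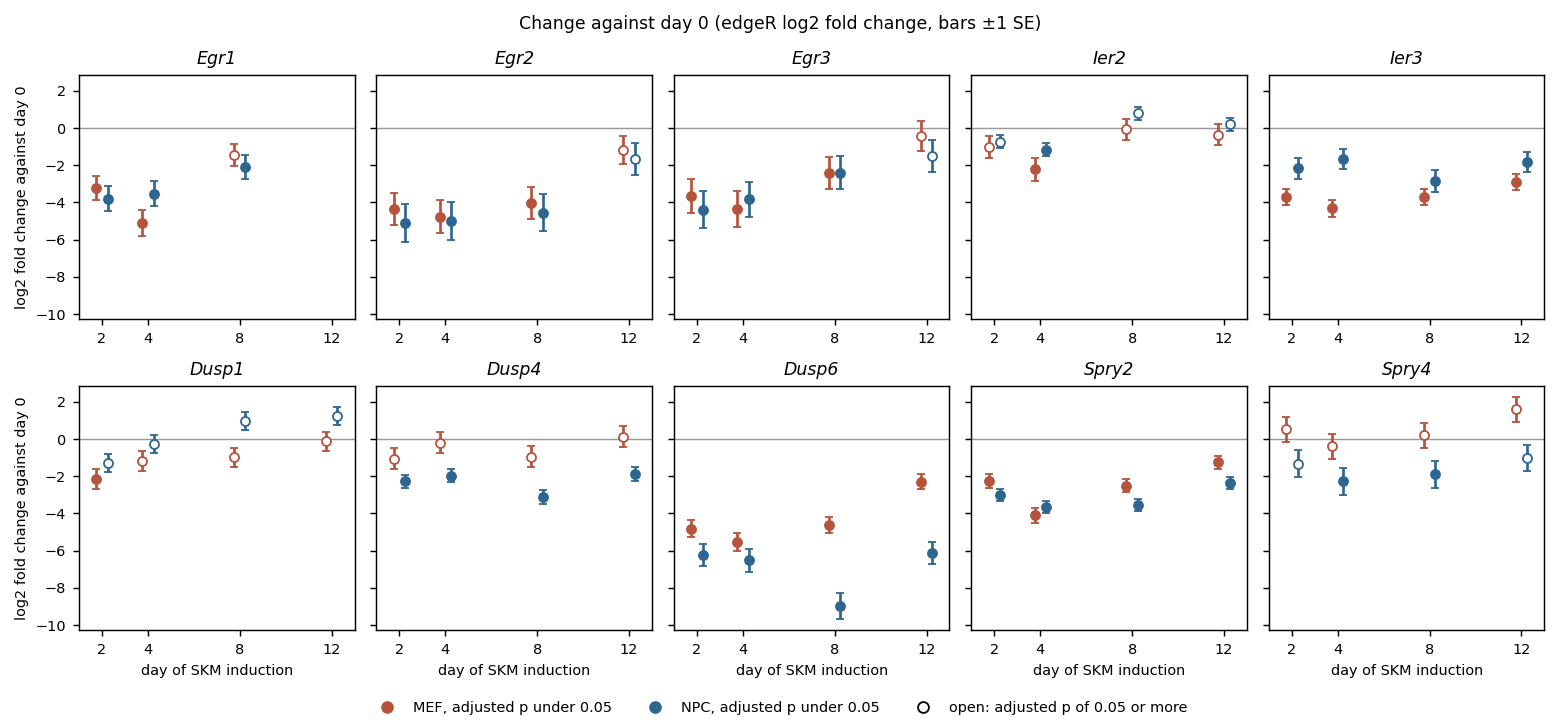
The edgeR log2 fold change against day 0 for each gene on days 2, 4, 8 and 12 in MEFs (red) and NPCs (blue), with bars of 1 SE; filled points passed adjusted p under 0.05 and Egr1 has no point on day 12. Dusp6 in NPCs reaches -8.97 on day 8, while no filled point of these fits lies above 0.

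Counted over the set, every member that passed against day 0 in these fits was lower. In MEFs 7 of 10 passed on day 2, where 24.1% of all genes tested were called lower, 7 on day 4 (31.4% of all), 5 on day 8 (29.2%) and 3 of 9 on day 12 (24.9%). In NPCs 7 of 10 passed on day 2 (17.3% of all called lower), 9 on day 4 (19.7%), 8 on day 8 (30.9%) and 4 of 9 on day 12 (23.9%). In these fits no member was called higher against day 0, where 20.9%, 28.2%, 29.3% and 26.9% of all genes were on MEF days 2, 4, 8 and 12, and 18.2%, 21.7%, 31.3% and 24.7% in NPCs. That 0 held with RLE and with upper-quartile scaling. Other settings called Spry4 higher on MEF day 12, Dusp1 on NPC days 8 and 12, Ier2 on NPC day 8 and MEF day 8, Egr3 on MEF day 12 and Dusp4 on MEF days 4 and 12, 5 of these 8 only with 1 day 0 library left out. Egr1 is left out on day 12. The members' median log2 fold change was -2.73 in MEFs and -2.64 in NPCs on day 2, where the medians over all genes were -0.033 and 0.037. On day 12 it was -0.42 and -1.66, against 0.104 and 0.133 over all genes. All comparisons of an origin with day 0 share the same 2 day 0 libraries. Since the set was drawn up with these data known, its counts and medians are a description. In the authors' deposited fold changes, 5, 6, 4 and 1 members had an adjusted p under 0.05 on MEF days 2, 4, 8 and 12. In NPCs 6, 6, 5 and 4 did, and in both origins all of them were down. The share of all genes that passed in the authors' comparisons was not counted, so these numbers cannot be set against it.

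Between successive days fewer members passed. In MEFs 2 of 10 fell from day 2 to day 4 (Egr1 and Spry2, with 11.8% of all genes called lower). The Egr1 fall of -1.89 ± 0.60 (edgeR adjusted p = 0.0447) was lost with each single library left out, at -2.19 to -1.50. It was also lost in the joint fit and with the lines left out, with or without a replicate block. The Spry2 fall was lost without either day 4 library and with the replicate block. From day 4 to day 8 of MEFs 3 rose (Egr1, Ier2 and Spry2, with 11.8% called higher). From day 8 to day 12 of MEFs 3 of 9 rose (Egr2, Dusp6 and Spry2, with 8.5% called higher and 5.52% lower). In NPCs none of 10 passed between days 2 and 4, where 2.91% of all genes did, with 0 members at an unadjusted p under 0.05 and 0 called by DESeq2. From day 4 to day 8 of NPCs Ier2 rose (16.3% of all called higher) and Dusp4 and Dusp6 fell (17.9% called lower). The Dusp4 fall of -1.14 ± 0.35 was lost in the joint fit and with only the groups compared. It was also lost without day 4 replicate 1 and without either day 8 library. With single libraries left out it ran from -1.54 to -0.58. From day 8 to day 12 of NPCs 4 of 9 rose, namely Egr2, Dusp4, Dusp6 and Spry2 (14.4% of all called higher and 16.6% lower). The median of the members on this last step was 1.25 in MEFs and 1.01 in NPCs, beside 0.058 and 0 over all genes. Leaving out single libraries took the day 8 to day 12 counts down to 0 in both origins: in MEFs without either day 8 library or day 12 replicate 2, and in NPCs without day 8 replicate 1 or day 12 replicate 2. In MEFs 0 of 15173 and 0 of 15180 genes were called at all without day 8 replicate 1 and replicate 2, and 0.472% of all without day 12 replicate 2, so these counts of 0 say nothing of the members in particular. In NPCs 11.4% of all genes were called without day 8 replicate 1 and 2.03% without day 12 replicate 2.

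The origins were told apart by 6 of 10 members in the starting cells, and no member was called on days 2, 8 or 12. On day 0 Ier3 (1.83 ± 0.46, edgeR adjusted p = 0.00564) and Dusp1 (1.75 ± 0.55, edgeR adjusted p = 0.0223) were higher in MEFs, where 16.5% of all genes were called higher. Dusp6 (-3.003 ± 0.48, edgeR adjusted p = 0.000213), Spry4 (-2.96 ± 0.64, edgeR adjusted p = 0.00212), Dusp4 (-2.11 ± 0.52, edgeR adjusted p = 0.00514) and Spry2 (-1.49 ± 0.34, edgeR adjusted p = 0.00277) were lower in MEFs, where 17.7% of all were. Dusp1 was no longer called without MEF day 0 replicate 2 (edgeR adjusted p = 0.199) or NPC day 0 replicate 1 (edgeR adjusted p = 0.208), nor Ier3 without NPC day 0 replicate 2 (edgeR adjusted p = 0.0508). The Egr1 difference was -0.46 ± 0.68 (edgeR adjusted p = 0.649).

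On days 2, 8 and 12 edgeR called 0 members between the origins, where 3.5%, 0.0124% and 0% of all genes were called, and DESeq2 called 0 on each. At an unadjusted p under 0.05 stood 1 member on day 2 (Dusp6), 2 on day 8 (Ier3 and Dusp6) and 0 on day 12. For Dusp6 the difference was -1.49 ± 0.51 on day 2 (edgeR adjusted p = 0.143) and 1.45 ± 0.60 on day 8 (edgeR adjusted p = 0.592). Without a low-count filter Dusp6 was called lower in MEFs on day 2 (-1.49, edgeR adjusted p = 0.00937), beside 4.27% of all genes called. The absence of calls in the fits reported does not show equal levels. On day 12 none of 16188 genes was called. The difference between the day 2 responses of MEFs and NPCs was called for 0 of 10 members by edgeR and by DESeq2, beside 8.31% of all genes, with 3 at an unadjusted p under 0.05 (Ier3, Dusp6 and Spry4). For Spry4 it was 1.96 ± 0.85 (edgeR adjusted p = 0.184), called without a low-count filter, with only the groups compared and with the lines left out with or without a replicate block (edgeR adjusted p = 0.00648 to 0.0326), and for Dusp6 1.515 ± 0.68 (edgeR adjusted p = 0.199).

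Against the lines on day 12 the members went both ways, in shares not far from those of all genes. Every day 12 library was above both lines for 4 of 10 members in MEF-derived cells (Egr1, Egr2, Egr3 and Dusp4) and for 5 in NPC-derived cells (the same and Spry4), beside 35.9% and 37.3% of all genes. Every day 12 library was below both lines for 3 members in MEF-derived cells (Ier2, Dusp6 and Spry2) and 4 in NPC-derived cells (the same and Ier3), beside 36.3% and 37.2% of all genes. The day 12 mean of Spry2 was 0.275-fold the mean of the lines in MEF-derived and 0.339-fold in NPC-derived cells, and that of Dusp6 0.608-fold and 0.323-fold. The lines are 1 library each. Egr1 was chosen on this contrast, so its place among the members above both lines was fixed by that choice. These counts and ratios are therefore a description with no test. Pluripotency markers did not all stand at the level of the lines on day 12. The summed level of 7 (Pou5f1, Nanog, Esrrb, Zfp42, Dppa5a, Tdgf1 and Lin28a) was 704 to 728 CPM in MEF-derived and 791 to 880 CPM in NPC-derived cells, against 6907 CPM in R1 ESC and 5618 CPM in SKM iPSC. By their means 6 of them lay below both lines, Nanog at 113 and 190 CPM against 1441 and 1091, and Pou5f1 nearer at 192 and 244.5 CPM against 441 and 422. Lin28a, at 193 and 177 CPM, lay above both lines at 90.9 and 104 CPM.

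**Figure D3:**
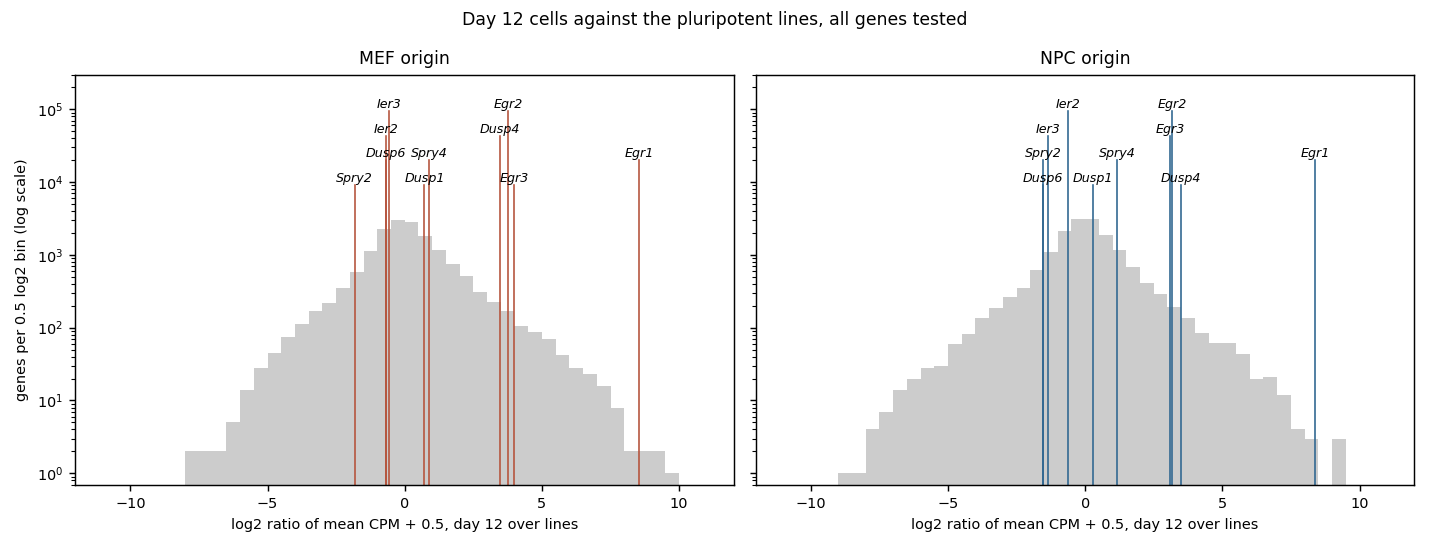
Number of genes (log axis) by log2 ratio of mean CPM plus 0.5 on day 12 over the lines, in bins of 0.5, for MEF (left) and NPC (right) origin, with the 10 genes marked by lines. Egr1 lies at 8.54 and 8.39 at the right edge, and Spry2 at -1.83 and -1.54 on the other side of 0.

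Other immediate-early genes, a list of 24 such as Fos, Jun and Klf6, moved in part with the Egr genes. On day 2, 12 of 23 tested fell and 1 rose in MEFs, and 11 of 24 fell and 2 rose in NPCs, beside 24.1% and 17.3% of all genes called lower and 20.9% and 18.2% higher. The largest MEF falls were Ctgf (-10.74 ± 1.25, edgeR adjusted p = 0.000125), a matricellular gene, and Klf6 (-5.68 ± 0.68, edgeR adjusted p = 0.000146), a zinc finger factor. In NPCs they were Fosb (-6.04 ± 1.51, edgeR adjusted p = 0.00983) and Fos (-5.13 ± 0.79, edgeR adjusted p = 0.000748), subunits of AP-1. The Fosb call was lost with 3 of the 4 libraries left out, and without NPC day 0 replicate 2 the value was 0.07 (edgeR adjusted p = 0.964). On day 12 of NPCs 6 of 24 had risen and 3 fallen, beside 24.7% and 23.9% of all genes. Among the latter was Egr4, another Egr factor, at 0.0535 and 0.0552 CPM on day 12. Egr4 passed the low-count filter only through both NPC day 0 libraries. A fall was thus the only call open to it, and its test adds no support. Every day 12 library was above both lines for 16 of the 24 in each origin, beside 35.9% and 37.3% of all genes, and below both for 6, beside 36.3% and 37.2%.

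Nab2, a corepressor that binds Egr1 and is itself an Egr target, fell in all 8 comparisons with day 0. Nab2 held 52.6 to 71.6 CPM in MEFs on day 0, 1.71 and 1.73 at day 2, 0.192 to 0.503 on day 4, and 3.69 to 8.65 on day 12. In NPCs its range was 34.8 to 42.7 CPM on day 0, 1.23 to 3.54 on day 2 and 3.92 to 7.81 on day 12. No later library came near day 0, and the lines held 7.67 and 6.24 CPM. The change on day 4 was -7.56 ± 0.62 in MEFs (edgeR adjusted p = 1.51e-05), and from day 8 to day 12 Nab2 rose by 3.03 ± 0.52 in MEFs (edgeR adjusted p = 0.0126) and 2.67 ± 0.73 in NPCs (edgeR adjusted p = 0.0209). The MEF rise of Nab2 was lost with 3 of the 4 libraries left out (edgeR adjusted p = 0.0771 to 0.164) and the NPC rise with 2 (edgeR adjusted p = 0.0821 and 0.151). Nab1, its relative, passed against day 0 on MEF day 2 only (0.97 ± 0.33, edgeR adjusted p = 0.0335), a call lost with 3 of the 4 libraries left out (edgeR adjusted p = 0.063 to 0.175).

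Other ERK feedback and ERK-responsive genes, 20 in the list, were counted in the same way. On day 2, 10 of 19 tested fell and 3 rose in MEFs, and 10 of 18 fell and 1 rose in NPCs, beside 24.1% and 17.3% of all genes called lower and 20.9% and 18.2% higher. From day 8 to day 12, 9 of 19 rose in MEFs and 6 of 18 in NPCs, beside 8.5% and 14.4% of all genes, and 0 fell in either, beside 5.52% and 16.6%. Without either MEF day 8 library no gene at all was called on the MEF step. The ETS factor Etv1 (-4.49 ± 0.46, edgeR adjusted p = 6.47e-05) and the FGF antagonist Il17rd (-4.32 ± 0.40, edgeR adjusted p = 3.45e-05) led the falls of NPCs on day 2. Spry1, a Sprouty relative, changed by -7.72 ± 0.40 in NPCs (edgeR adjusted p = 4.33e-07) and by -4.24 ± 0.61 in MEFs (edgeR adjusted p = 0.00027) on day 12. Etv5 rose from day 8 to day 12 in NPCs by 2.80 ± 0.35 (edgeR adjusted p = 0.00192), from 11.6 to 15.96 CPM to 87.0 to 101 CPM, still below the 696 and 433 CPM of the lines. In MEFs Dusp9 (2.58 ± 0.51, edgeR adjusted p = 0.0173) and Dusp5 (2.11 ± 0.47, edgeR adjusted p = 0.0218), both ERK phosphatases, led the rises on that step, and both calls were lost with 3 of the 4 libraries left out (edgeR adjusted p = 0.0934 to 0.182).

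Of 21 kinases, adaptors and effectors of the cascade, 7 fell and 0 rose in MEFs and 4 fell and 1 rose in NPCs on day 2, beside 24.1% and 17.3% of all genes called lower and 20.9% and 18.2% higher, with medians of -0.38 and -0.23. Elk3, an ETS partner of serum response factor, changed on day 2 by -3.10 ± 0.40 in MEFs (edgeR adjusted p = 0.000212) and by -3.24 ± 0.53 in NPCs (edgeR adjusted p = 0.00108). Rps6ka1, a kinase that ERK activates, rose by day 12 by 3.78 ± 0.46 in MEFs (edgeR adjusted p = 8.88e-05) and 3.77 ± 0.29 in NPCs (edgeR adjusted p = 3.15e-06). Among ligands and receptors, 12 of 23 fell and 6 rose in MEFs and 9 of 21 fell and 6 rose in NPCs on day 2, beside the same shares of all genes. The PDGF receptor gene Pdgfrb changed by -8.42 ± 0.84 in MEFs on day 2 (edgeR adjusted p = 6.31e-05). Fgf4, the FGF ligand of pluripotent cells, rose by 12.52 ± 0.77 in MEFs (edgeR adjusted p = 4.26e-06) and 13.17 ± 0.88 in NPCs by day 12 (edgeR adjusted p = 2.57e-06). Fitted changes of genes near 0 counts in a group depend on the prior count and are no bounds.

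The genes whose course over the 12 groups was most like that of Egr1 were Cacfd1, Ndst1, Eif4g3, Endod1 and Phlda1. Among 11244 genes of at least 5 CPM on average, their Pearson correlation with Egr1 over group means of log2(CPM + 1) was 0.959, 0.956, 0.947, 0.942 and 0.942. Phlda1, an ERK-responsive gene, held 75.9 CPM in MEFs and 55.6 CPM in NPCs on day 0, 26.6 and 21.4 at day 4, 63.2 and 65.9 at day 12, and 4.47 and 3.07 CPM in R1 ESC and SKM iPSC. Of the other members, Egr3 (0.88), Dusp4 (0.84) and Egr2 (0.77) were closest to Egr1, followed by Spry4 (0.50), Dusp6 (0.19), Dusp1 (0.13), Ier3 (0.11), Ier2 (-0.02) and Spry2 (-0.09). Dusp6 and Spry2 were closest to each other (0.87), as were Egr2 and Egr3 (0.96). These 12 points share day 0 and the lines, which set much of each correlation, and are a description.

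Libraries of a group often differed for these genes. Folds between libraries are given here as ratios of CPM with 0.5 added to both. In MEFs on day 0, 5 of 10 members differed more than 2-fold between the libraries, Egr3 by 7.20-fold, Ier2 by 4.84-fold, Egr2 by 3.46-fold and Egr1 by 3.18-fold with replicate 1 higher, and Dusp4 by 4.94-fold with replicate 2 higher. Only 0.686% of all genes differed as much as Egr3 there. In NPCs on day 0 replicate 2 was higher by 4.60-fold for Egr3, 3.55-fold for Egr2 and 2.60-fold for Dusp1, and 0.0618% of all genes differed as much as Egr3. On day 12 replicate 2 was higher for 10 of 10 members in MEF-derived and 9 of 10 in NPC-derived cells, by 2.72-fold and 2.86-fold for Egr1. For Egr1 in NPC-derived day 12 cells, 0.364% of all genes differed as much. The median size of the log2 difference over all genes was 0.161 to 0.463 in the 10 groups.

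**Figure D4:**
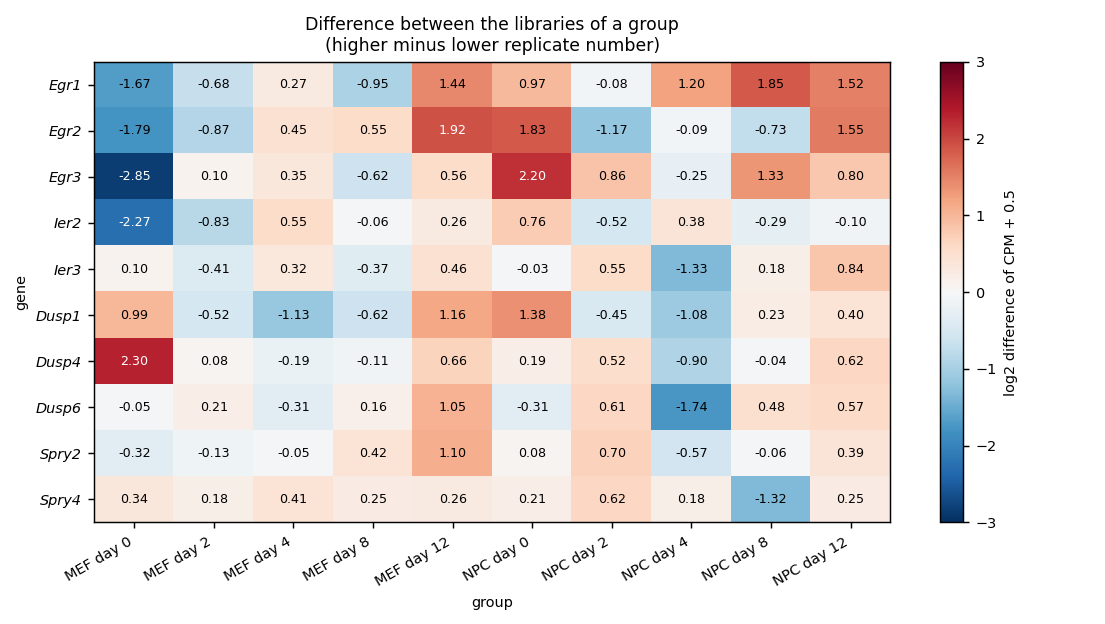
Log2 difference of CPM plus 0.5 between the libraries of each group (higher minus lower replicate number) for the 10 genes. MEF day 0 spans -2.85 for Egr3 to 2.30 for Dusp4, and both day 12 columns are nearly all above 0.

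Markers of other cells and of handling were read beside these results. Fibroblast markers (7) summed to 19570 to 29610 CPM in MEFs on day 0 and 660 to 796 CPM on day 2, and neural progenitor markers (6 of 7 found) to 2938 CPM in both NPC libraries of day 0. Macrophage markers (7 of 8 found) summed to 184 to 365 CPM in MEFs on day 0 and 10.7 to 20.8 CPM on day 2. None of the 7 was at 0 counts on either day. In NPCs these macrophage sums were 4.42 to 5.32 CPM on day 0 and 2.81 to 4.62 CPM on day 2. Adgre1, Ptprc and Tyrobp were at 0 in NPCs on day 0. On day 12 the macrophage sums were 23.1 to 73.0 CPM in MEF-derived and 37.5 to 39.7 CPM in NPC-derived cells. The lines held 19.97 CPM (R1 ESC) and 8.715 CPM (SKM iPSC). On day 12 Fcgr1 was at 0 in both origins and Tyrobp in NPC-derived cells. NPC day 4 replicate 1, headed as grown with feeder cells, held 1820 CPM of fibroblast and 94.3 CPM of macrophage markers against 73.9 and 6.91 CPM in replicate 2. By the ratio of CPM with 0.5 added to both, replicate 1 was 3.33-fold higher for Dusp6 and 2.52-fold for Ier3. With that library or any other of the 4 compared left out, the NPC day 4 change against day 0 ran from -7.91 to -5.82 for Dusp6. For Ier3 it ran from -2.60 to -1.11. Keratinocyte markers (6) summed to 4.83 to 14.99 CPM in MEFs and 1.58 to 1.73 CPM in NPCs on day 0, 1356 to 2012 and 875 to 951.5 CPM on day 8, and 627 to 854 and 351 to 464.5 CPM on day 12, against 35.8 and 134 CPM in the lines. None of the 6 was at 0 on day 12, while Krt6a was at 0 in both lines, Krt5 in R1 ESC and Krt14 in SKM iPSC. These sums were higher on days 8 and 12 than on day 0. Endothelial markers (5) summed to 27.3 to 55.25 CPM in MEF-derived and 36.4 to 43.5 CPM in NPC-derived cells on day 12, below the lines at 155 and 178 CPM. Heat shock and handling genes (7) summed to 457 to 673 CPM in MEFs and 301 to 328.5 CPM in NPCs on day 0, and to 457 to 516 and 482 to 602 CPM on day 12. The part of other cells and of handling in the day 0, day 8 and day 12 levels was not tested.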

How the data were processed

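The members and gene lists were chosen with earlier results of these data known. The authors deposited raw counts per gene for 22 RNA-seq libraries (the deposit is named for FPKM, but the values are whole numbers), made with FastQC and STAR 2.5.1b on mm9, per the submitters' processing notes; the counting program is not given in the sources used here. Log2 fold changes and p-values of the authors were deposited beside the counts and used only where named. The 37999 table lines were reduced to 37620 genes; 16079 without a symbol were kept. A column headed SKM_9 was taken as SKM iPSC. Libraries held 15902838 to 20102260 counts.

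Genes with at least 1 CPM in at least 2 libraries were tested with edgeR 4.0.16 (R 4.3.3; TMM, quasi-likelihood test, Benjamini-Hochberg over all genes, threshold 0.05) in 19 comparisons, 1 fit per origin with both lines as 1 group, and a joint fit between origins. The code was tested on simulated data. CPM use TMM over all libraries. Other genes named are at most the 2 called genes of largest change per list and comparison, and the 5 most like Egr1. Alternatives were DESeq2 1.42.0, other scalings, filters and sample sets, a replicate block with the lines left out, each library left out and, chosen after seeing the data, the lines left out. Same-numbered libraries did not deviate together throughout, so the numbers were not used as pairs. The 11 ChIP-seq and input samples were not used, since their mm9 peaks could not be placed at genes.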

Additional observations from a re-analysis of the deposited data

Results flagged for a closer look

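Spry4, the Sprouty inhibitor, had log2 ratios of mean CPM against day 0 of opposite sign in the 2 origins on days 8 and 12. The ratio was 0.33 in MEF-derived and -1.92 in NPC-derived cells on day 8, and 1.67 and -1.06 on day 12. Both MEF libraries of each day lay above both MEF day 0 libraries, and both NPC libraries lay below both NPC day 0 libraries. Of these changes the NPC fall on day 8 was called (-1.89, edgeR adjusted p = 0.0413), and MEF day 8 (0.21, edgeR adjusted p = 0.81), MEF day 12 (1.60, edgeR adjusted p = 0.0674) and NPC day 12 (-1.02, edgeR adjusted p = 0.259) were not. The level of Spry4 did not pass between the origins on day 8 (-0.76, edgeR adjusted p = 0.681) or day 12 (-0.25, edgeR adjusted p = 1). The difference of the responses on days 8 and 12 was not tested.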

How the results depend on the processing

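Of 71 called pairs of gene and comparison, 71 were kept with DESeq2, RLE scaling, upper-quartile scaling and no low-count filter, 66 in the joint fit and 59 with only the groups compared. Leaving out each library in turn kept 40 throughout, among them 35 of the 50 against day 0. Upper-quartile scaling shifted the median of all genes by -0.14 on NPC day 8 against day 0.

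The sign of the log2 fold change turned in 65 refits, 60 of them with a library left out, for 42 pairs of gene and comparison, none of them called in the fits reported; the turned value was called in 3 (Ier2 on MEF day 8, Egr3 on MEF day 12 and Dusp4 on MEF day 4, each without a MEF day 0 library). With single libraries left out, changes against day 0 ran, on MEF day 4 for Dusp4 -0.98 to 1.39, on MEF day 8 for Ier2 -0.83 to 1.45 and Dusp4 -1.72 to 0.66, and on MEF day 2 for Ier2 -1.76 to 0.53 and Dusp4 -1.83 to 0.54. The ranges were, on MEF day 12 for Egr3 -1.29 to 1.84, Ier2 -1.11 to 1.18, Dusp4 -0.65 to 1.72 and Dusp1 -0.79 to 0.44, on NPC day 12 for Ier2 -0.18 to 0.62 and Egr3 -2.29 to 0.08, and on NPC day 4 for Dusp1 -0.97 to 0.59. Between successive days they ran, for MEF day 8 against day 4, for Dusp1 -0.27 to 0.88, and for MEF day 4 against day 2, for Egr2 -0.94 to 0.42. They were, for NPC day 4 against day 2, for Egr3 -0.08 to 1.69, Egr2 -0.73 to 2.32, Dusp6 -1.64 to 0.40, Ier3 -0.40 to 1.05, Dusp4 -0.23 to 0.70 and Egr1 -0.45 to 0.74, and for NPC day 8 against day 4, for Spry2 -0.17 to 0.47, Egr2 -0.36 to 1.00 and Spry4 -0.45 to 0.95. Between the origins they ran, on day 0 for Egr3 -2.48 to 1.41, Egr2 -1.10 to 1.35, Ier2 -1.10 to 1.19 and Egr1 -1.52 to 0.15. On day 12 they ran for Ier2 -0.15 to 0.10, Dusp4 -0.38 to 0.33, Spry2 -0.95 to 0.17, Egr2 -0.73 to 1.76 and Dusp1 -0.24 to 0.91. For the difference of the day 2 responses they ran for Ier2 -0.91 to 1.38, Egr3 -0.80 to 3.10 and Egr2 -0.39 to 3.10. On day 2 they ran for Egr1 -0.16 to 0.52, Ier2 -0.18 to 0.64 and Egr3 -0.01 to 1.74, and on day 8 for Egr1 -0.35 to 1.48, Egr3 -0.74 to 0.94, Dusp1 -0.46 to 0.18 and Spry4 -1.28 to 0.08. With the replicate block and the lines left out, the values that turned were 0.48 for Dusp4 on MEF day 4 against day 0, 0.15 for Ier2 on MEF day 8 against day 0, -0.37 for Dusp1 on MEF day 8 against day 4, and, between the origins, 0.08 for Egr3 on day 0 and 0.00 for Ier2 on day 12.

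Without a low-count filter the members called were 4 for MEF day 4 against day 2 (16.5% of all genes tested), 5 for MEF day 12 against day 8 (13.3%), 5 for NPC day 8 against day 4 (20.2%), 1 for MEF against NPC on day 2 (4.27%) and 1 for the difference of the day 2 responses (6.77%). With only the groups compared, where 8 or 9 of 10 members passed the filter between successive days, they were 5 for MEF day 4 against day 2 (34.4% of all), 6 for MEF day 8 against day 4 (53.3%), 7 for NPC day 12 against day 0 (64.5%), 1 for NPC day 8 against day 4 (14.6%), 1 for NPC day 12 against day 8 (13.5%) and 1 for the difference of responses (5.14%). The joint fit gave 1 for MEF day 4 against day 2 (22.5%). With single libraries left out, counts ran from 2 to 5 (MEF day 12 against day 0; 42.3% to 49.8% of all), 0 to 1 (MEF day 4 against day 2; 4.09% to 20.1%), 0 to 2 (MEF day 8 against day 4; 4.37% to 11.6%), 0 to 3 (MEF day 12 against day 8; 0% to 17.6%), 5 to 7 (NPC day 4 against day 0; 23.6% to 34.7%), 0 to 4 (NPC day 12 against day 8; 2.03% to 36.8%) and 0 to 1 (difference of responses; 3.67% to 11.7%). The cause was not tested.

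Same-numbered libraries of an origin correlated at -0.11 to 0.48, with 8 of 16 pairs above 0.1, and across the origins at -0.04 to 0.67, with 11 of 20 above 0.1. With the replicate number as a block and the lines left out, 63 of the 71 pairs were kept, and counts were 0 for MEF day 4 against day 2 (3.91% of all genes), 1 for MEF day 8 against day 4 (11.3%) and 1 for the difference of responses (9.99%). With the lines left out and no block, chosen after seeing the data, 67 were kept, and the counts were 2 (23.0%), 3 (21.1%) and 1 (8.3%). The planned look at peaks near these genes was not run. A gene with 0 counts in a line is limited by depth, and the lines have no replicate.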
